A study of Mus musculus with 12 samples.

Results

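The genes described here are 34 genes of the endoplasmic reticulum (ER): chaperones, protein disulfide isomerases, genes of ER-associated degradation, parts of the translocon and the sensors of the unfolded protein response. They were taken by gene symbol from the 15584 genes of a deposited expression table. All 34 were listed, and all 34 were among the 13759 genes tested. The symbols were chosen by gene function, with no threshold on a value, but with earlier results of these data in view. The list therefore counts as selected on the changes of these genes across the 4 groups, the interaction included. Counts and medians over it are descriptions and no independent support for a direction.

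The libraries came from the corpus callosum of mice, the white matter tract linking both cerebral hemispheres. Mice were wild type (WT) or, per the series' design, deficient in the aryl hydrocarbon receptor in microglia, a genotype labelled AHR CKO. Each genotype was sampled as control (Ctrl) and in the cuprizone (CPZ) model. Cuprizone, which chelates copper, causes loss of oligodendrocytes, the cells that make myelin. The 12 libraries form 4 groups of 3, named WT Ctrl, WT CPZ, AHR CKO Ctrl and AHR CKO CPZ. The sources used here do not give the Cre line behind the deletion, the dose and length of the treatment, or the age and sex of the mice. Whether each library is its own animal is not labelled either, and the spread that the p-values rest on may be technical. The question the design asks of these genes is how cuprizone changed them in each genotype, and whether the change differed between genotypes.

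Secreted and membrane proteins, among them the proteins of myelin, are pushed into the ER through the Sec61 channel, fold there with the help of chaperones and disulfide isomerases, and are sent back to the cytosol for degradation if they fail. When unfolded proteins build up, the sensors IRE1 (gene Ern1), PERK (Eif2ak3) and ATF6 (Atf6) start the unfolded protein response. IRE1 splices the mRNA of Xbp1 and ATF6 is cut in the Golgi, and the freed factors raise the genes of chaperones and of ER-associated degradation. PERK phosphorylates the initiation factor eIF2α, which slows translation and favours that of Atf4, the transcription factor of the integrated stress response.

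The promoters of ER chaperones are known for the ER stress element (ERSE), the site bound by ATF6 together with NF-Y, and its sequence is shown here. Since the element is known from genes of this kind, its share among the 34 is a description and no independent support. RefSeq promoters of GRCm38.p6, from 250 bases before to 50 after the start site, were found by symbol for 26 of the 34 genes. Hyou1, Sil1, Manf, Atf6, Derl1, Ssr2, Sec61a1 and Sec11c had no entry. Both strands were searched for ERSE (CCAAT, any 9 bases, CCACG) and ERSE-II (ATTGG, any 1 base, CCACG), for the core of the unfolded protein response element (TGACGTG) and for the C/EBP-ATF element (TGATGNAAT). ERSE and ERSE-II share the CCAAT and CCACG blocks (CCAAT read as ATTGG on the other strand), and no match overlapped another in these promoters. The stretches around the elements upstream of the start site read 5′ to 3′ on the strand of the gene, with the fixed bases of ERSE or ERSE-II in capitals:
Hspa5 (chr2:34772013-34772055, plus strand): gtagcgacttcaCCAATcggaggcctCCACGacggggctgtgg
Hsp90b1 (chr10:86705521-86705668, minus strand): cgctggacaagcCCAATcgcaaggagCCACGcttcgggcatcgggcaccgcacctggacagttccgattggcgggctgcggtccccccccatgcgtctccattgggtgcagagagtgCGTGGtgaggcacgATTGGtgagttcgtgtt
Calr (chr8:84847063-84847105, minus strand): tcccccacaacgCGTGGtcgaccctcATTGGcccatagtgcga
Canx (chr11:50325788-50325830, minus strand): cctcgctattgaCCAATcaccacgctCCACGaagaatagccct
Dnajc3 (chr14:118937815-118937857, plus strand): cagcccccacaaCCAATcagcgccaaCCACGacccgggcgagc
Creld2 (chr15:88819508-88819550, plus strand): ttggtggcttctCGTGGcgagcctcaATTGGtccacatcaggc
Pdia6 (chr12:17266479-17266521, plus strand): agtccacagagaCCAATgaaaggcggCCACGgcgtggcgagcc
Syvn1 (chr19:6046520-6046562, plus strand): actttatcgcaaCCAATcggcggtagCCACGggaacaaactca
Herpud1 (chr8:94386365-94386399, plus strand): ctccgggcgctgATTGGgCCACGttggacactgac

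Herpud1 carries ERSE-II and the other genes shown carry ERSE, Hsp90b1 with 2 copies. In Calr, in Creld2 and in the second copy of Hsp90b1 the element lies on the opposite strand and is read as CGTGG before ATTGG. ERSE was in the promoters of 8 of the 26 genes (30.8%), against 37 of all 27025 genes with a promoter (0.137%). ERSE-II was in 2 of the 26, Herpud1 and Dnajb11, where it lies after the start site, against 12 of all genes (0.0444%). The core TGACGTG was in 2 of the 26, Hspa5 and Txndc5 (2.22% of all genes), and the C/EBP-ATF element in 0 of the 26 (1.08% of all genes). A match is a description of these letters and does not show that a factor binds.

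**Figure D1:**
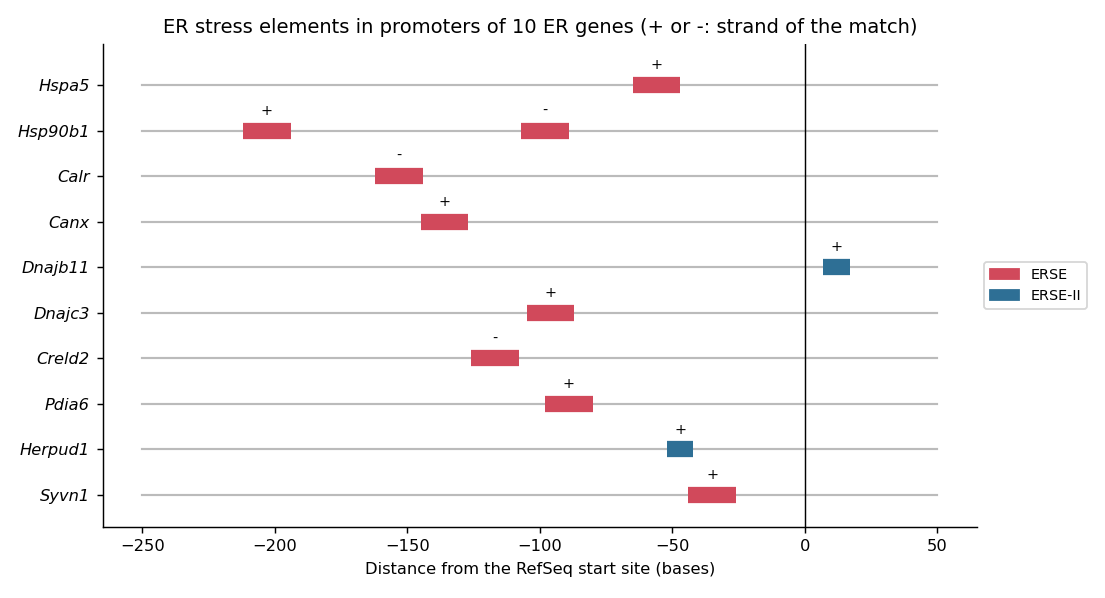
Positions of ERSE (red) and ERSE-II (blue) in the RefSeq promoters of the 10 ER genes that hold one, as distance in bases from the start site, with + or - for the strand relative to the gene. In 9 of the genes every element lies upstream of the start site; in Dnajb11 it lies downstream, 7 to 17 bases after the start.

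Expression is given as FPKM (fragments scaled by transcript length and by library depth). The targeted gene, Ahr, was listed at 1.48 to 2.22 FPKM in WT Ctrl, 1.73 to 2.01 in WT CPZ, 1.41 to 2.07 in AHR CKO Ctrl and 1.48 to 2.57 in AHR CKO CPZ. The groups overlapped and the genotypes differed by -0.01 ± 0.16 (SE) on the log2 scale in Ctrl and by 0.02 ± 0.16 in CPZ (adjusted p = 0.97 and 0.937, limma), so the gene-level value in whole tissue does not check the genotype labels. Genotypes are therefore named as labelled throughout. Totals were 447156 to 519470 FPKM per library. A rough estimate from the smallest steps in the values, 9 to 31 genes per library, gave 11400000 to 14900000 fragments each. Steps were taken only from a fixed window (FPKM times length in kb, 0.05 to 0.12). This window bounds the estimate beforehand, so the depth is not known independently of it. The libraries of a group correlated across genes with r between 0.972 and 0.993. Genes listed at 0 numbered 52 to 80 in the AHR CKO libraries, 94 in WT CPZ replicate 2 and 0 in the other 5 WT libraries, a difference that goes largely with genotype. Whether the libraries were quantified or filtered together is not given in the sources read here, and a difference in processing and the genotype cannot be told apart in values compared between genotypes. None of the 34 genes was at 0 in any library. Summed markers of mature oligodendrocytes (10 genes) stood at 9785 to 17827 FPKM in WT Ctrl, 2948 to 3543 in WT CPZ, 9409 to 10047 in AHR CKO Ctrl and 3927 to 4916 in AHR CKO CPZ. All 10 fell with cuprizone in both genotypes. Summed microglial markers (12 genes) stood at 451 to 513, 1912 to 2841, 431 to 454 and 1272 to 2111 FPKM in the same order, and 9 of 12 rose in each genotype. Among them Cx3cr1, a chemokine receptor of microglia, set AHR CKO libraries apart within their own groups, at 1.05, 9.6 and 0.801 FPKM in AHR CKO Ctrl and 1.16, 22.7 and 29.6 in AHR CKO CPZ, against 22.6 to 24.9 in WT Ctrl and 49.4 to 69.4 in WT CPZ. Csf1r, another receptor of microglia, stood at 33.1 to 35.4 FPKM in WT Ctrl and 81.1 to 124 in WT CPZ. In AHR CKO it stood at 26.5 to 30.2 in Ctrl and at 39.6, 71.2 and 80.7 in CPZ. Under cuprizone 3 of the 12 microglial markers were lower in AHR CKO than in WT and 0 higher, Csf1r among them (log2 difference -0.71, adjusted p = 0.0395, limma). The part of the Cx3cr1 split in the results was not tested beyond leaving out each library. Summed choroid plexus markers (6 genes) varied widely, from 43.3 to 155 FPKM in WT Ctrl, at 2989, 57.7 and 985 in the WT CPZ libraries, from 415 to 3583 in AHR CKO Ctrl and from 1009 to 3737 in AHR CKO CPZ. Summed astrocyte markers (9 genes) stood at 959 to 1104 FPKM in WT Ctrl and 1942 to 2446 in WT CPZ. In AHR CKO they stood at 788 to 934 in Ctrl and 1383 to 2228 in CPZ. Under cuprizone 3 of the 10 oligodendrocyte markers were higher in AHR CKO than in WT and 0 lower. In control tissue 2 of 4 tested fibroblast markers were higher in AHR CKO and 0 lower. In bulk tissue, a change in the number of cells of a type and a change in RNA per cell cannot be told apart.

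With cuprizone, 7 of 12 lumenal chaperones and 4 of 6 isomerases rose in WT corpus callosum, and 1 of the 12 and 2 of the 6 in AHR CKO. Of the 34 genes, 17 rose, 2 fell and 15 did not pass in WT (limma on log2(FPKM + 1) over all genes, Benjamini-Hochberg adjusted p under 0.05), with a median log2 change of 0.29. Of all genes tested 16.9% were called, 9.08% higher and 7.81% lower, with a median of -0.04. In AHR CKO 3 rose, 0 fell and 31 did not pass, with a median of 0.06. Of all genes 10.2% were called, 7.22% higher and 2.98% lower. At an unadjusted p under 0.05, 22 were higher and 3 lower in WT, and 8 higher and 0 lower in AHR CKO. Under cuprizone, AHR CKO stood below WT in 19 of the 34 genes and above it in 2, with a median difference of -0.39. Of all genes 20% were called, 10.8% lower and 9.14% higher, with a median of 0.0017. In control tissue 3 genes were lower in AHR CKO and 0 higher, with a median of -0.12, where 6.19% of all genes were called, 4.76% lower and 1.42% higher. At an unadjusted p under 0.05 these counts were 13 and 5 (limma). The number of all genes called in control tissue, 851, was 8 without WT Ctrl replicate 1, 12 without WT Ctrl replicate 2, 7 without AHR CKO Ctrl replicate 2 and 4 without AHR CKO Ctrl replicate 3. It was 179 without WT CPZ replicate 3, 259 without AHR CKO CPZ replicate 2 and 1428 without AHR CKO CPZ replicate 1, so this share rests on single libraries. Rescaling the values to a common total moved the median of all genes under cuprizone to -0.12 and the median of the 34 to -0.52, with 25 lower and 0 higher, against 16.9% lower and 4.56% higher over all genes on that scale. Under cuprizone the number of all genes called, 2747, was 1148 without WT CPZ replicate 1, 1201 without WT CPZ replicate 3, 777 without AHR CKO CPZ replicate 1 and 1474 without AHR CKO CPZ replicate 2. Without AHR CKO CPZ replicate 1, 14 of the 34 genes were lower in AHR CKO and 2 higher. These comparisons share libraries, and their counts are not independent of each other.

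The genes were also counted by whether the groups of 3 libraries overlapped. With cuprizone in WT, 24 of the 34 were higher and 3 lower without overlap (34.7% of all genes, 15.8% higher and 18.9% lower). In AHR CKO these counts were 6 and 1 (28.9% of all genes, 14.3% and 14.6%). Between genotypes, 4 were higher and 24 lower in AHR CKO under cuprizone (38.8% of all genes, 18.9% and 20%). In control tissue 3 were higher and 16 lower (35.4% of all genes, 13.5% and 21.9%).

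Together the 34 genes took up 0.329% to 0.345% of the summed FPKM in WT Ctrl and 0.42% to 0.511% in WT CPZ, where every library lay above every other. In AHR CKO the share was 0.301% to 0.318% in Ctrl and 0.3% to 0.316% in CPZ, so these groups overlapped. WT CPZ replicate 1 had the highest share and also the highest microglial and choroid plexus sums of its group. WT CPZ replicate 2 had the lowest share of its group, with a choroid plexus sum of 57.7 FPKM inside the WT Ctrl range. Without WT CPZ replicate 2, 17 of the 34 genes rose in WT and 1 fell. Without WT CPZ replicate 1, the WT calls of Derl1, Edem1, Sec61a1, Sec61b, Ssr1 and Sec11c were lost. The number of all genes called in WT, 2324, was 1594 without replicate 1 and 2373 without replicate 2 (limma).

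**Figure D2:**
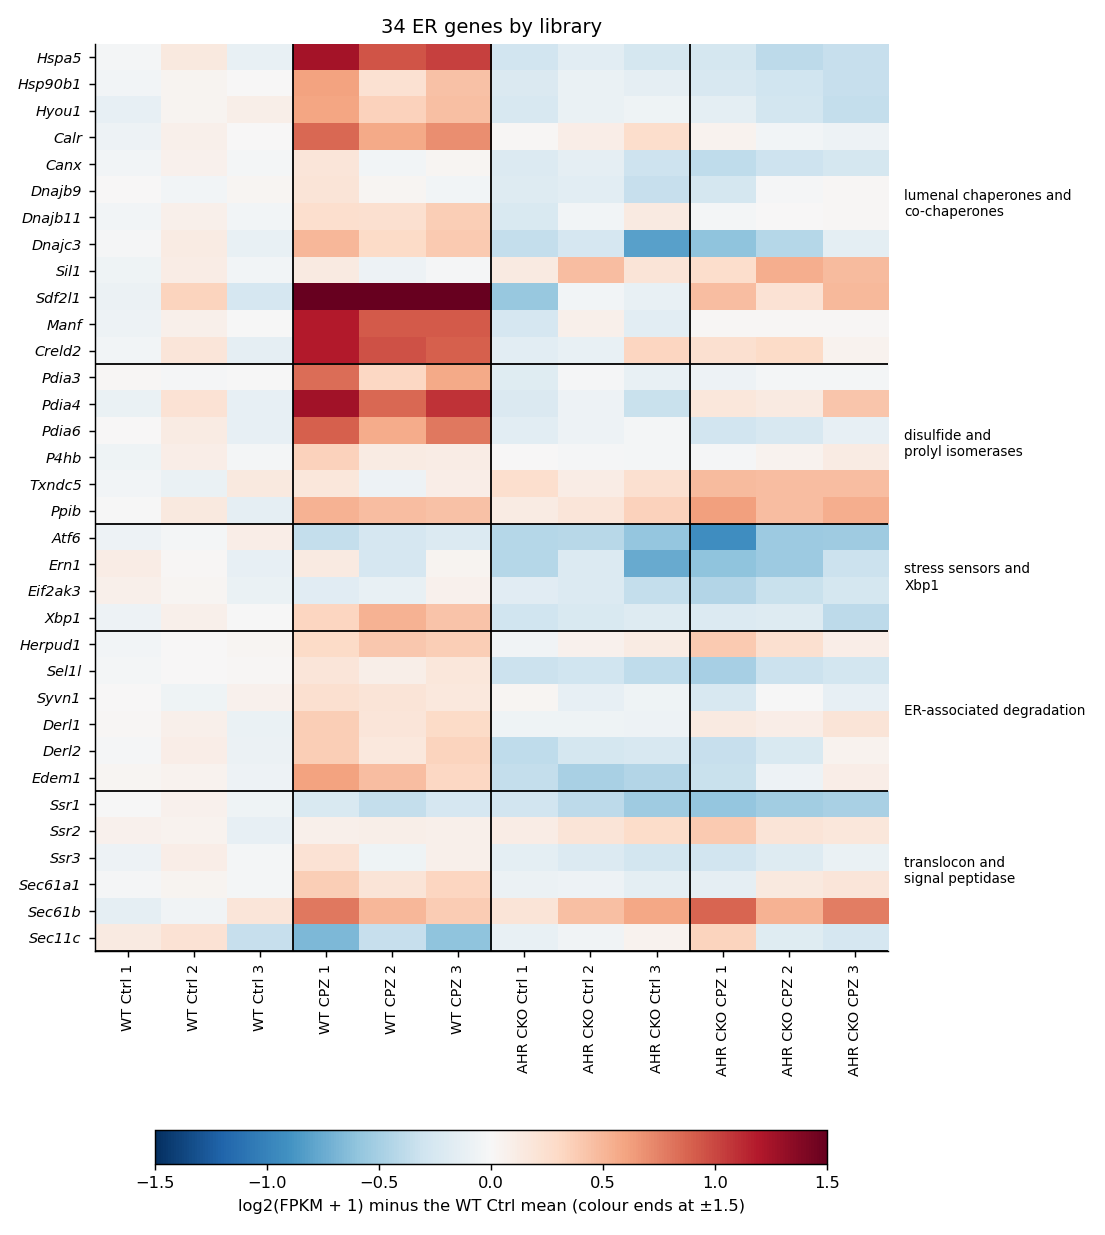
The 34 ER genes (rows, by role) in each of the 12 libraries (columns), as log2(FPKM + 1) minus the mean of the 3 WT Ctrl libraries, with colours ending at ±1.5. Most chaperone and isomerase rows are red across the 3 WT CPZ libraries and pale or blue in most AHR CKO libraries, while the sensors Atf6, Ern1 and Eif2ak3 are not red in WT CPZ as a group.

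Hspa5 encodes BiP, the HSP70 chaperone of the ER lumen that also holds the stress sensors inactive, and lies on chromosome 2 at 34772090 to 34776529 (GRCm38). It was listed at 116, 130.4 and 109 FPKM in WT Ctrl, 283, 229 and 241 in WT CPZ, 96.3, 106 and 98.1 in AHR CKO Ctrl and 97.9, 89.5 and 92.4 in AHR CKO CPZ. The WT CPZ libraries lay above all 9 others, which spanned 89.5 to 130.4. Hspa5 rose with cuprizone in WT, 2.12-fold, from 118 ± 10.8 to 251 ± 28.1 FPKM, as mean ± SD of n = 3 libraries each (log2 change 1.07 ± 0.10 (SE), adjusted p = 1.65e-05). In AHR CKO it stood at 100.1 ± 5.08 and 93.3 ± 4.26 (log2 change -0.10 ± 0.10 (SE), adjusted p = 0.576). Under cuprizone it was lower in AHR CKO than in WT (log2 difference -1.41 ± 0.10 (SE), adjusted p = 7.96e-05).

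The cuprizone effect on Hspa5 differed between the genotypes by -1.18 ± 0.14 on the log2 scale (SE, adjusted p = 0.0277, limma). This interaction passed for 5 of the 13759 genes (0.0363% of those tested, 0.0145% positive and 0.0218% negative), and Hspa5 had the smallest p of all, 2.02e-06 before adjustment. The number of genes called was 103 without WT Ctrl replicate 3 (96 positive and 7 negative) and 38 without WT CPZ replicate 2 (10 and 28). It was 1 without WT Ctrl replicate 2, WT CPZ replicate 1 or AHR CKO CPZ replicate 3. It was 0 without WT Ctrl replicate 1, any AHR CKO Ctrl library or AHR CKO CPZ replicate 1 or 2, and with the replicate block (limma, with 1043 to 1345 genes at an unadjusted p under 0.05). The Hspa5 call was lost without WT Ctrl replicate 1 or without any of the AHR CKO libraries in turn (largest adjusted p = 0.123). The difference itself lay between -1.09 and -1.25 in all alternatives tried. None of the other 33 genes passed, and 12 of the 34 had a negative interaction at an unadjusted p under 0.05 and 1 a positive one. The closest were Calr and Pdia6 (each adjusted p = 0.0673) and Manf (adjusted p = 0.0681), with differences of -0.85, -0.88 and -0.88. The interaction was negative in 28 of the 34 genes, with a median of -0.16, where over all genes 55.3% were positive and the median was 0.03.

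Marker genes of other cells moved beside this contrast. The 6 choroid plexus markers all had a negative interaction with no call (median -1.38), the 10 oligodendrocyte markers all a positive one with 2 calls (median 1.03), and the 12 microglial markers no call (median -0.40). In the order of the replicates, Hspa5 stood at 283, 229 and 241 FPKM in WT CPZ. Choroid plexus markers stood there at 2989, 57.7 and 985, and microglial markers at 2841, 1912 and 2114. In AHR CKO CPZ Hspa5 stood at 97.9, 89.5 and 92.4. Choroid plexus markers stood there at 3737, 1009 and 2831, and microglial markers at 1272, 1713 and 2111. The part of these cell types in the result was not tested.

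**Figure D3:**
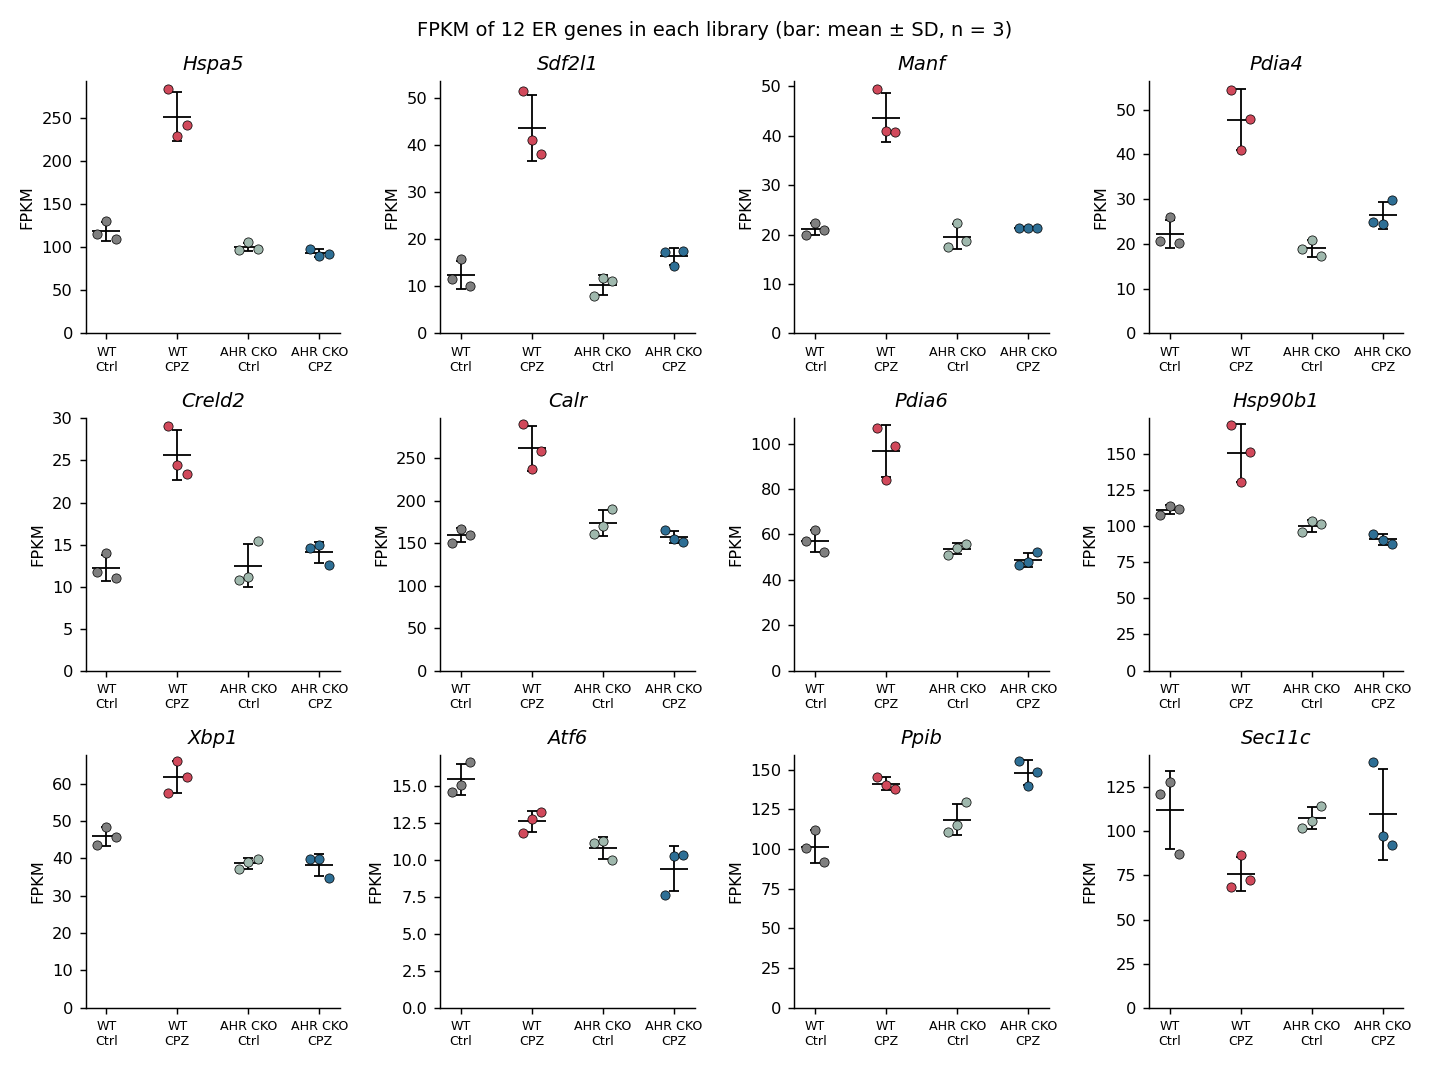
FPKM of 12 ER genes in each library (points), with the mean ± SD of the 3 libraries of each group (bars), axes from 0. Hspa5, Sdf2l1, Manf, Pdia4, Creld2, Calr, Pdia6, Hsp90b1 and Xbp1 have their 3 WT CPZ libraries above all other libraries, whereas Atf6, Ppib and Sec11c follow other patterns.

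Another 6 lumenal chaperones rose in WT as well. Sdf2l1, a partner of BiP that keeps its clients soluble, was listed at 11.5, 15.8 and 10.2 FPKM in WT Ctrl, 51.5, 41.2 and 38.2 in WT CPZ, 7.95, 11.9 and 11.2 in AHR CKO Ctrl and 17.2, 14.4 and 17.6 in AHR CKO CPZ. Its rise in WT, 3.5-fold, was the largest of the 34 (log2 change 1.74 ± 0.18 (SE), adjusted p = 3.24e-05). In AHR CKO its CPZ libraries also lay above its Ctrl libraries (1.58-fold, log2 change 0.63 ± 0.18 (SE), adjusted p = 0.0415), a call that was lost without any AHR CKO library, WT Ctrl replicate 1 or WT CPZ replicate 3 (largest adjusted p = 0.175). Its difference between the effects, -1.11 ± 0.25, did not pass (adjusted p = 0.2).

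Manf, a small ER protein that is released under stress and binds BiP, was listed at 19.99, 22.4 and 21.03 FPKM in WT Ctrl, 49.5, 40.9 and 40.7 in WT CPZ, 17.5, 22.4 and 18.8 in AHR CKO Ctrl and 21.4, 21.4 and 21.3 in AHR CKO CPZ. The AHR CKO CPZ libraries lay close to each other and inside the range of the WT Ctrl libraries, and the WT CPZ libraries lay above them. Manf rose 2.07-fold in WT (log2 change 1.01 ± 0.10 (SE), adjusted p = 3.26e-05) and did not pass in AHR CKO (adjusted p = 0.485). Creld2, an ER protein with epidermal growth factor repeats, was listed at 11.7, 13.9 and 10.96 FPKM in WT Ctrl, 29.1, 24.4 and 23.4 in WT CPZ, 10.8, 11.2 and 15.5 in AHR CKO Ctrl and 14.6, 14.999 and 12.6 in AHR CKO CPZ. It rose 2.1-fold in WT (log2 change 1.01 ± 0.14 (SE), adjusted p = 0.000289). Its AHR CKO Ctrl and CPZ libraries overlapped.

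Calr, calreticulin, the calcium-binding lectin chaperone of the lumen, was listed at 151, 167 and 159.9 FPKM in WT Ctrl, 290.1, 237 and 258 in WT CPZ, 161, 170.3 and 190.3 in AHR CKO Ctrl and 165, 155 and 151 in AHR CKO CPZ. It rose in WT (log2 change 0.71 ± 0.10 (SE), adjusted p = 0.000272) and stood slightly lower, without passing, in AHR CKO (log2 change -0.14, adjusted p = 0.411). Hsp90b1, which encodes GRP94, the HSP90 of the ER, was listed at 108, 114 and 112 FPKM in WT Ctrl, 170.3, 130.3 and 151 in WT CPZ, 95.7, 103 and 102 in AHR CKO Ctrl and 94.3, 90.7 and 87.3 in AHR CKO CPZ. All 3 WT CPZ libraries lay above the WT Ctrl libraries (log2 change 0.42 ± 0.09 (SE), adjusted p = 0.00809), and all 3 AHR CKO CPZ libraries lay below the AHR CKO Ctrl libraries by less than the test could call (log2 change -0.14). Hyou1, the large HSP70-like nucleotide exchange factor of BiP, showed the same order of groups at a lower level, with 23.7 ± 1.87 FPKM in WT Ctrl, 33.1 ± 2.95 in WT CPZ, 21.5 ± 1.38 in AHR CKO Ctrl and 19.6 ± 1.56 in AHR CKO CPZ (WT log2 change 0.46 ± 0.10 (SE), adjusted p = 0.0049). Under cuprizone all of Sdf2l1, Manf, Creld2, Calr, Hsp90b1 and Hyou1 were lower in AHR CKO than in WT, with differences of -1.35, -0.99, -0.82, -0.73, -0.72 and -0.72 on the log2 scale, and these calls held without any 1 of the 12 libraries (largest adjusted p = 0.0256).

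The remaining chaperones and J-proteins did not pass the test in WT. Canx, calnexin, the membrane-bound relative of calreticulin, was at 97.3 ± 3.81 FPKM in WT Ctrl, 101 ± 8.12 in WT CPZ, 83.6 ± 5.42 in AHR CKO Ctrl and 77.8 ± 3.16 in AHR CKO CPZ, with adjusted p = 0.712 in WT. Of the J-proteins that recruit BiP, Dnajc3 (also known as p58IPK) stood at 21.5 ± 1.89 FPKM in WT Ctrl, 28.5 ± 2.2 in WT CPZ, 15.3 ± 3.2 in AHR CKO Ctrl and 16.2 ± 2.82 in AHR CKO CPZ, with its 3 WT CPZ libraries above its WT Ctrl libraries but adjusted p = 0.1. Dnajb11 narrowly missed the threshold (log2 change 0.29, adjusted p = 0.0512), and Dnajb9 stood at 30.9 ± 0.769 FPKM in WT Ctrl, 32.3 ± 2.86 in WT CPZ, 26.2 ± 1.87 in AHR CKO Ctrl and 29.2 ± 3.09 in AHR CKO CPZ. Under cuprizone Dnajc3, Canx and Dnajb11 were lower in AHR CKO (adjusted p = 0.00838, 0.0128 and 0.0452). The Canx call was lost without AHR CKO CPZ replicate 1 (adjusted p = 0.0512), and the Dnajb11 call without any of 9 of the 12 libraries (largest adjusted p = 0.141). Sil1, the other nucleotide exchange factor of BiP, went the opposite way and was higher in AHR CKO CPZ than in WT CPZ, at 25.4 ± 2.58 against 18.8 ± 1.52 FPKM (log2 difference 0.41 ± 0.11 (SE), adjusted p = 0.0242). That call was lost without WT CPZ replicate 2 or 3 or AHR CKO CPZ replicate 2 (largest adjusted p = 0.0811) and after rescaling to a common total.

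Among the disulfide isomerases, which form and reshuffle the disulfide bonds of folding proteins, Pdia4 (ERp72) rose most. It was listed at 20.5, 25.9 and 20.2 FPKM in WT Ctrl, 54.5, 40.99 and 47.8 in WT CPZ, 18.8, 20.9 and 17.2 in AHR CKO Ctrl and 24.9, 24.4 and 29.8 in AHR CKO CPZ. Its rise was 2.15-fold in WT (log2 change 1.07 ± 0.13 (SE), adjusted p = 0.000117) and 1.39-fold in AHR CKO (log2 change 0.45 ± 0.13 (SE), adjusted p = 0.0466), the latter lost without any AHR CKO library, WT Ctrl replicate 1 or WT CPZ replicate 3 (largest adjusted p = 0.149). Pdia6 (P5), which binds BiP and damps IRE1, was listed at 57.2, 61.9 and 52.1 FPKM in WT Ctrl, 107, 84.2 and 99.1 in WT CPZ, 51.003, 54.2 and 55.8 in AHR CKO Ctrl and 46.4, 48.04 and 52.4 in AHR CKO CPZ. Its WT CPZ libraries lay above all others (log2 change 0.75 ± 0.10 (SE), adjusted p = 0.000226), and in AHR CKO it did not pass (log2 change -0.13, adjusted p = 0.469). Pdia3 (ERp57), the partner of calreticulin and calnexin, was listed at 78.5, 76.5 and 77.4 FPKM in WT Ctrl, 139, 96.3 and 115 in WT CPZ, 68.3, 76.3 and 71.5 in AHR CKO Ctrl and 73.3, 76.2 and 75.7 in AHR CKO CPZ. It rose in WT (log2 change 0.57 ± 0.11 (SE), adjusted p = 0.00334). Under cuprizone Pdia6, Pdia4 and Pdia3 were lower in AHR CKO, with differences of -0.96, -0.83 and -0.62 on the log2 scale (adjusted p = 0.000868, 0.00448 and 0.00717).

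P4hb, the founding disulfide isomerase and a subunit of collagen prolyl hydroxylase, stood at 68.996 ± 4.31 FPKM in WT Ctrl, 79.1 ± 7.38 in WT CPZ, 68.3 ± 0.684 in AHR CKO Ctrl and 71.6 ± 3.75 in AHR CKO CPZ, with no call in any comparison. Ppib, cyclophilin B, a prolyl isomerase, rose in both genotypes, from 102 ± 10.1 to 141 ± 3.94 FPKM in WT (log2 change 0.48 ± 0.09 (SE), adjusted p = 0.0034) and from 118 ± 9.82 to 148 ± 7.85 in AHR CKO (log2 change 0.32 ± 0.09 (SE), adjusted p = 0.0461). The AHR CKO call for Ppib was lost in turn without 9 of the 12 libraries, all but WT Ctrl replicates 2 and 3 and AHR CKO Ctrl replicate 3 (largest adjusted p = 0.178). Txndc5 (ERp46) was the only isomerase of the list higher in AHR CKO under cuprizone, at 37.8, 37.2 and 37.3 FPKM against 30.3, 25.3 and 28.8 in WT CPZ (log2 difference 0.40 ± 0.09 (SE), adjusted p = 0.0133), and this call was lost after rescaling to a common total (adjusted p = 0.0744).

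**Figure D4:**
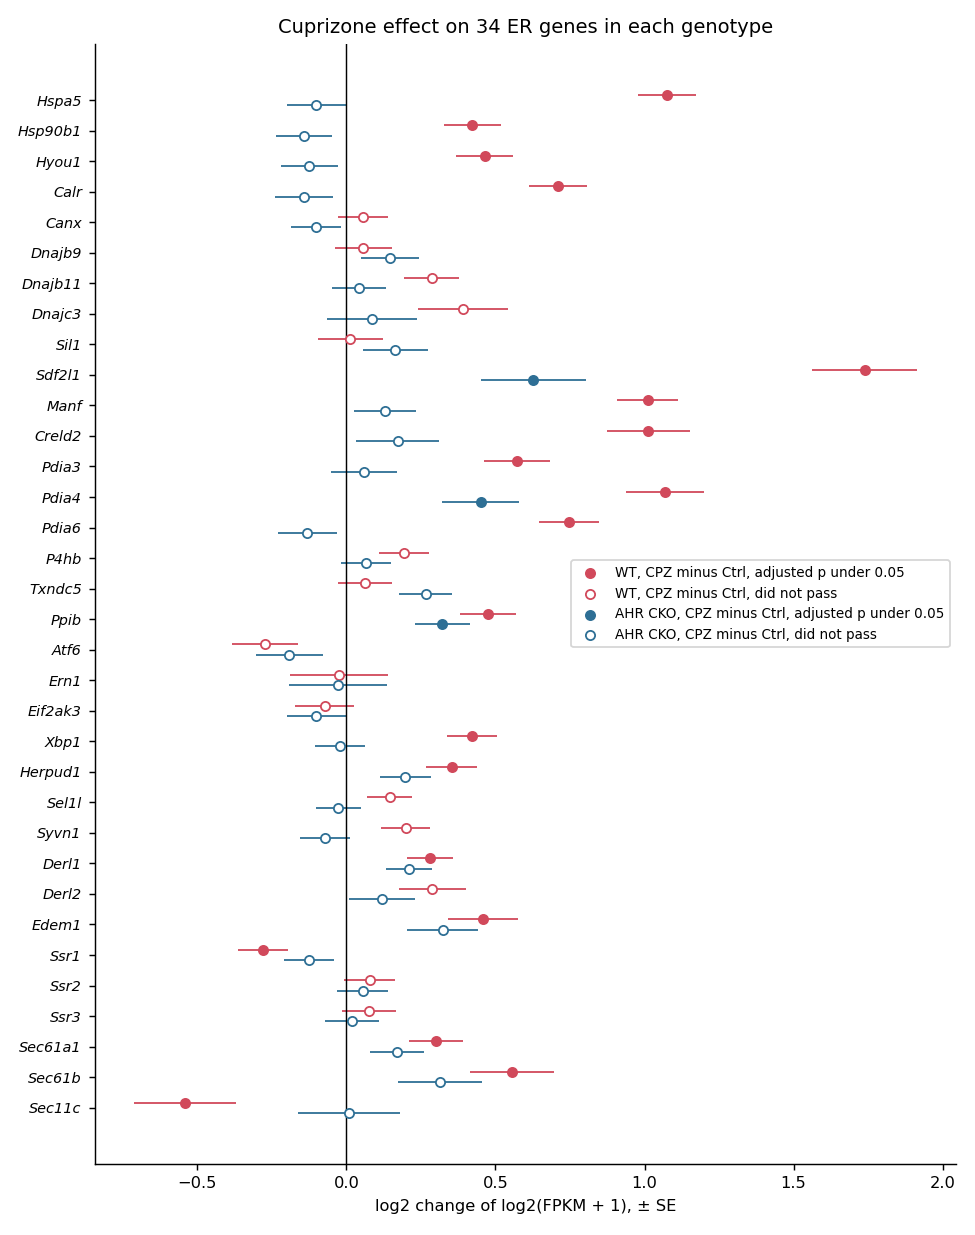
Log2 change of log2(FPKM + 1) with cuprizone, ± SE, for each of the 34 ER genes in WT (red) and AHR CKO (blue), filled where adjusted p was under 0.05. Hspa5, Calr and Pdia6 are filled and well above 0 in WT, and open and slightly below 0 in AHR CKO.

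None of the 3 stress sensor transcripts was called higher. Atf6 was listed at 14.6, 15.1 and 16.6 FPKM in WT Ctrl, 11.8, 12.8 and 13.3 in WT CPZ, 11.2, 11.3 and 9.99 in AHR CKO Ctrl and 7.63, 10.3 and 10.4 in AHR CKO CPZ. Its levels were lower in AHR CKO than in WT in Ctrl (log2 difference -0.48 ± 0.11 (SE), adjusted p = 0.0373) and in CPZ (log2 difference -0.40 ± 0.11 (SE), adjusted p = 0.0299), and within WT the CPZ libraries lay below the Ctrl libraries without passing (log2 change -0.27, adjusted p = 0.124). The 2 calls were lost without 8 and 4 of the 12 libraries, among them WT CPZ replicate 3 for both (largest adjusted p = 0.142 and 0.107), and neither passed after a correction for transcript length and GC content. Eif2ak3 (PERK) was at 8.57 ± 0.584 FPKM in WT Ctrl, 8.11 ± 0.778 in WT CPZ, 7.09 ± 0.57 in AHR CKO Ctrl and 6.54 ± 0.438 in AHR CKO CPZ and Ern1 (IRE1), the lowest of the 34, at 2.15 ± 0.254 FPKM in WT Ctrl, 2.11 ± 0.428 in WT CPZ, 1.31 ± 0.439 in AHR CKO Ctrl and 1.25 ± 0.237 in AHR CKO CPZ, with no call in any comparison. All AHR CKO libraries of Eif2ak3 and Ern1 lay below the WT libraries of the same treatment, in Ctrl and in CPZ. Of all genes 21.9% and 20% were lower in this way. In Ctrl and CPZ the unadjusted p was 0.0291 and 0.0174 for Eif2ak3, and 0.0154 and 0.0147 for Ern1 (limma). The table gives 1 value per gene, so neither the splicing of Xbp1 nor the cutting of ATF6 is measured.

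Xbp1, the target of IRE1, did change in level. It was listed at 43.5, 48.4 and 45.6 FPKM in WT Ctrl, 57.5, 65.95 and 61.9 in WT CPZ, 37.01, 39.04 and 39.9 in AHR CKO Ctrl and 39.8, 39.8 and 34.8 in AHR CKO CPZ. The WT CPZ libraries lay above all others, a rise of 1.35-fold in WT (log2 change 0.42 ± 0.08 (SE), adjusted p = 0.00383) while AHR CKO did not pass (log2 change -0.02 ± 0.08, adjusted p = 0.906). Under cuprizone Xbp1 was lower in AHR CKO than in WT (log2 difference -0.68 ± 0.08 (SE), adjusted p = 0.00199). Its interaction of -0.44 did not pass (adjusted p = 0.265).

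Of the 6 genes of ER-associated degradation, Herpud1, Derl1 and Edem1 rose in WT and 0 in AHR CKO (3 at an unadjusted p under 0.05, limma). Herpud1, a membrane protein that assembles the retrotranslocation complex, went from 33.9 ± 0.801 to 43.6 ± 1.81 FPKM in WT (log2 change 0.35 ± 0.09 (SE), adjusted p = 0.0128) and was listed at 32.6, 35.4 and 36.998 in AHR CKO Ctrl and 44.6, 40.1 and 36.5 in AHR CKO CPZ. Edem1, which extracts misfolded glycoproteins from the calnexin cycle, was listed at 8.17, 8.33 and 7.5 FPKM in WT Ctrl, 12.7, 11.4 and 10.1 in WT CPZ, 6.02, 5.43 and 5.61 in AHR CKO Ctrl and 6.12, 7.53 and 8.61 in AHR CKO CPZ. Its WT CPZ libraries were highest (log2 change 0.46 ± 0.12 (SE), adjusted p = 0.0185) and its AHR CKO Ctrl libraries lowest. Derl1, a part of the retrotranslocation channel, rose from 30.2 ± 1.91 to 36.8 ± 2.55 in WT (log2 change 0.28 ± 0.08 (SE), adjusted p = 0.0261). The WT calls were lost for Herpud1 without WT Ctrl replicate 1 (adjusted p = 0.0503), for Edem1 without WT Ctrl replicate 3 or WT CPZ replicate 1 (largest 0.0841) and for Derl1 without WT Ctrl replicate 1 or 3 or WT CPZ replicate 1 or 3 (largest 0.108).

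Sel1l and Syvn1, the core of the HRD1 ubiquitin ligase, and Derl2 each had all 3 WT CPZ libraries above the WT Ctrl libraries but did not pass, with log2 changes of 0.15, 0.20 and 0.29 (adjusted p = 0.227, 0.127 and 0.101). Sel1l was listed at 33.99, 34.8 and 34.9 FPKM in WT Ctrl, 39.3, 36.7 and 39.1 in WT CPZ, 27.4, 27.9 and 26.3 in AHR CKO Ctrl and 24.3, 27.6 and 28.4 in AHR CKO CPZ, with every AHR CKO library below every WT library. It was lower in AHR CKO in Ctrl (log2 difference -0.34 ± 0.08 (SE), adjusted p = 0.0348) and in CPZ (log2 difference -0.51 ± 0.08 (SE), adjusted p = 0.00387). The Ctrl call was lost without any of 7 of the 12 libraries, namely WT Ctrl replicates 1 and 2, WT CPZ replicate 3, all AHR CKO Ctrl replicates and AHR CKO CPZ replicate 2 (largest adjusted p = 0.133). Edem1, Derl2 and Syvn1 were also lower in AHR CKO under cuprizone, with log2 differences of -0.56, -0.46 and -0.32 (adjusted p = 0.0111, 0.017 and 0.0208). The calls for Derl2 and Syvn1 were lost without WT CPZ replicate 1 or 3 or AHR CKO CPZ replicate 1, and that for Derl2 also without AHR CKO CPZ replicate 2 (largest adjusted p = 0.0721 and 0.0825).

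The translocon and signal peptidase genes moved in both directions. Sec61b and Sec61a1, subunits of the Sec61 channel, rose in WT, from 42.7 ± 5.14 to 63.4 ± 9.67 FPKM (log2 change 0.56 ± 0.14 (SE), adjusted p = 0.0167) and from 29.7 ± 0.828 to 36.8 ± 2.35 (log2 change 0.30 ± 0.09 (SE), adjusted p = 0.0396). Ssr1, a subunit of the translocon-associated protein complex, fell in WT from 22.3 ± 1.03 to 18.2 ± 0.929 (log2 change -0.28 ± 0.08 (SE), adjusted p = 0.0389) and was lower in AHR CKO than in WT in Ctrl (log2 difference -0.41 ± 0.08 (SE), adjusted p = 0.0307), while Ssr2 and Ssr3 of the same complex passed in no comparison. Sec11c, a catalytic subunit of the signal peptidase, was listed at 121, 128 and 86.9 FPKM in WT Ctrl, 68.6, 86.7 and 72.4 in WT CPZ, 102, 106 and 114 in AHR CKO Ctrl and 139, 97.5 and 92.3 in AHR CKO CPZ. It fell in WT (log2 change -0.54 ± 0.17 (SE), adjusted p = 0.0481). Its spread within groups was wide, with WT Ctrl replicate 3 at the level of WT CPZ replicate 2. In AHR CKO no gene of this set passed. The WT calls were lost without WT Ctrl replicate 1 or 2 or WT CPZ replicate 1 for Sec61b, and without any of 8 of the 12 libraries in turn for each of Sec61a1, Ssr1 and Sec11c, WT Ctrl replicates 1 and 2 and WT CPZ replicates 1 and 3 among them (largest adjusted p = 0.0743, 0.137, 0.129 and 0.166). The Ssr1 call in Ctrl was lost without WT Ctrl replicate 1 or 2, WT CPZ replicate 3 or AHR CKO Ctrl replicate 2 or 3 (largest adjusted p = 0.122).

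The genes with an element in the promoter can be set beside the others. In WT, 6 of the 10 genes with ERSE or ERSE-II rose and 0 fell, with a median log2 change of 0.41 (Hspa5, Hsp90b1, Calr, Creld2, Pdia6 and Herpud1), and of the 16 with a promoter but neither element 7 rose and 1 fell, with a median of 0.24. In AHR CKO 0 of the 10 passed, with a median of -0.09, and 3 of the 16 rose, with a median of 0.09. Under cuprizone 9 of the 10 were lower in AHR CKO, all but Herpud1, against 7 of the 16, with medians of -0.72 and -0.37. Of the 10350 tested genes with a promoter entry, 9.14% were higher and 7.91% lower in WT, 7.38% and 2.99% in AHR CKO, and 9.05% higher and 10.8% lower in AHR CKO under cuprizone. Of the other 39 genes with either element, found by sequence alone, 16 were tested, and in WT 2 rose, 1 fell and the median was -0.10. Those that rose were Krtcap2, a subunit of the oligosaccharyltransferase, and Nucb1, and the only gene of the 16 called lower in AHR CKO under cuprizone was Derl3, a paralog of Derl1 (adjusted p = 0.0341), a call that was lost without WT CPZ replicate 1 or 3 or any AHR CKO CPZ library in turn (largest adjusted p = 0.122). The difference between the genes with and without an element was not tested.

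Other genes of the pathway were counted from 8 lists with 153 symbols, of which 143 were tested. In WT 25 rose and 4 fell (median 0.07), and in AHR CKO 19 rose and 0 fell (median 0.04, with 35 higher and 6 lower at an unadjusted p under 0.05). Over all genes 9.08% were higher and 7.81% lower in WT, and 7.22% and 2.98% in AHR CKO, and several of the counts per list lie near or below these shares. Of 15 other chaperones 4 rose in WT, led by Serp1, a translocon-associated stress protein, from 33.8 ± 2.03 to 56.1 ± 9.55 FPKM and Nucb1, a calcium-binding protein, from 26.3 ± 0.252 to 36.1 ± 4.55, and 1 fell, Clgn, from 4.57 ± 0.325 to 2.82 ± 0.212. Of 18 other translocon and signal peptidase genes 3 rose, Tram1 and Sec61g among them, and 1 fell, Sec62. Of 18 genes of glycan transfer and trimming 2 rose, Krtcap2 and Mlec, of 17 other isomerases 1, Fkbp10, and of 16 genes of KDEL retrieval and ER export 1, Surf4. Of 24 other genes of ER-associated degradation 0 rose (5 at an unadjusted p under 0.05, limma) and 1, Ufd1l, fell. Of 14 genes listed with other sensors and membrane-bound factors 4 rose, led by Creb3l1 and by Bbc3, which is a gene of cell death and not a sensor. Among the other genes named from these lists, Ufd1l included (largest adjusted p = 0.0431), the WT calls were lost for Sec61g without WT Ctrl replicate 1 or 3 or WT CPZ replicate 1, for Sec62 without WT Ctrl replicate 1 or 2, and for Bbc3 without WT Ctrl replicate 2 or WT CPZ replicate 2 (largest adjusted p = 0.0641, 0.0735 and 0.0591). None of the 143 passed the interaction (14 at an unadjusted p under 0.05).

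Of 21 genes of PERK signalling and ATF4 targets, 10 rose and 1 fell in WT (median 0.51), and 12 rose and 0 fell in AHR CKO (median 0.86, with 15 higher and 2 lower at an unadjusted p under 0.05). Over all genes 9.08% were higher and 7.81% lower in WT, and 7.22% and 2.98% in AHR CKO. The list was chosen with earlier results of these data known. Nupr1, a stress-induced chromatin protein, rose from 7.4 ± 2.89 to 53.02 ± 15.3 FPKM in WT (log2 change 2.71 ± 0.27 (SE), adjusted p = 2.65e-05) and from 9.34 ± 2.41 to 115 ± 19.1 in AHR CKO (log2 change 3.49 ± 0.27 (SE), adjusted p = 1.14e-05). Vldlr, a lipoprotein receptor, fell in WT from 16.3 ± 1.33 to 11.5 ± 1.96 (log2 change -0.48 ± 0.15 (SE), adjusted p = 0.0448), a call that passed in 9 of 22 alternatives and was lost without any WT Ctrl library (largest adjusted p = 0.138). Atf5, a relative of ATF4, rose from 19.03 ± 3.5 to 116 ± 28.4 in WT (log2 change 2.53 ± 0.18 (SE), adjusted p = 5.2e-06) and from 21.2 ± 2.83 to 159.7 ± 21.3 in AHR CKO (log2 change 2.85 ± 0.18 (SE), adjusted p = 5.5e-06). Ddit3, the gene of CHOP, which was chosen after its values were seen, was listed at 42.6, 45.02 and 39.4 FPKM in WT Ctrl, 54.7, 107 and 77.7 in WT CPZ, 37.7, 40.6 and 54.5 in AHR CKO Ctrl and 123, 112 and 132 in AHR CKO CPZ. It rose in both genotypes (WT log2 change 0.85 ± 0.20 (SE), adjusted p = 0.0109; AHR CKO log2 change 1.46 ± 0.20 (SE), adjusted p = 0.000473) and under cuprizone its AHR CKO level exceeded the WT level (log2 difference 0.66 ± 0.20 (SE), adjusted p = 0.0379). That difference between genotypes passed in 11 of 22 alternatives and was lost without WT Ctrl replicate 1, WT CPZ replicate 1 or 3, AHR CKO Ctrl replicate 2 or any AHR CKO CPZ library, and after rescaling to a common total (largest adjusted p = 0.121). Under cuprizone 7 of the 21 were higher in AHR CKO than in WT and 0 lower, where 9.14% of all genes were higher and 10.8% lower. This count was 4 without WT CPZ replicate 1 and 4 without WT CPZ replicate 3, and rescaling to a common total gave 5 higher and 1 lower. In the same comparison 10 of the 12 lumenal chaperones were lower and 1, Sil1, higher. The difference between the gene lists was not tested.

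**Figure D5:**
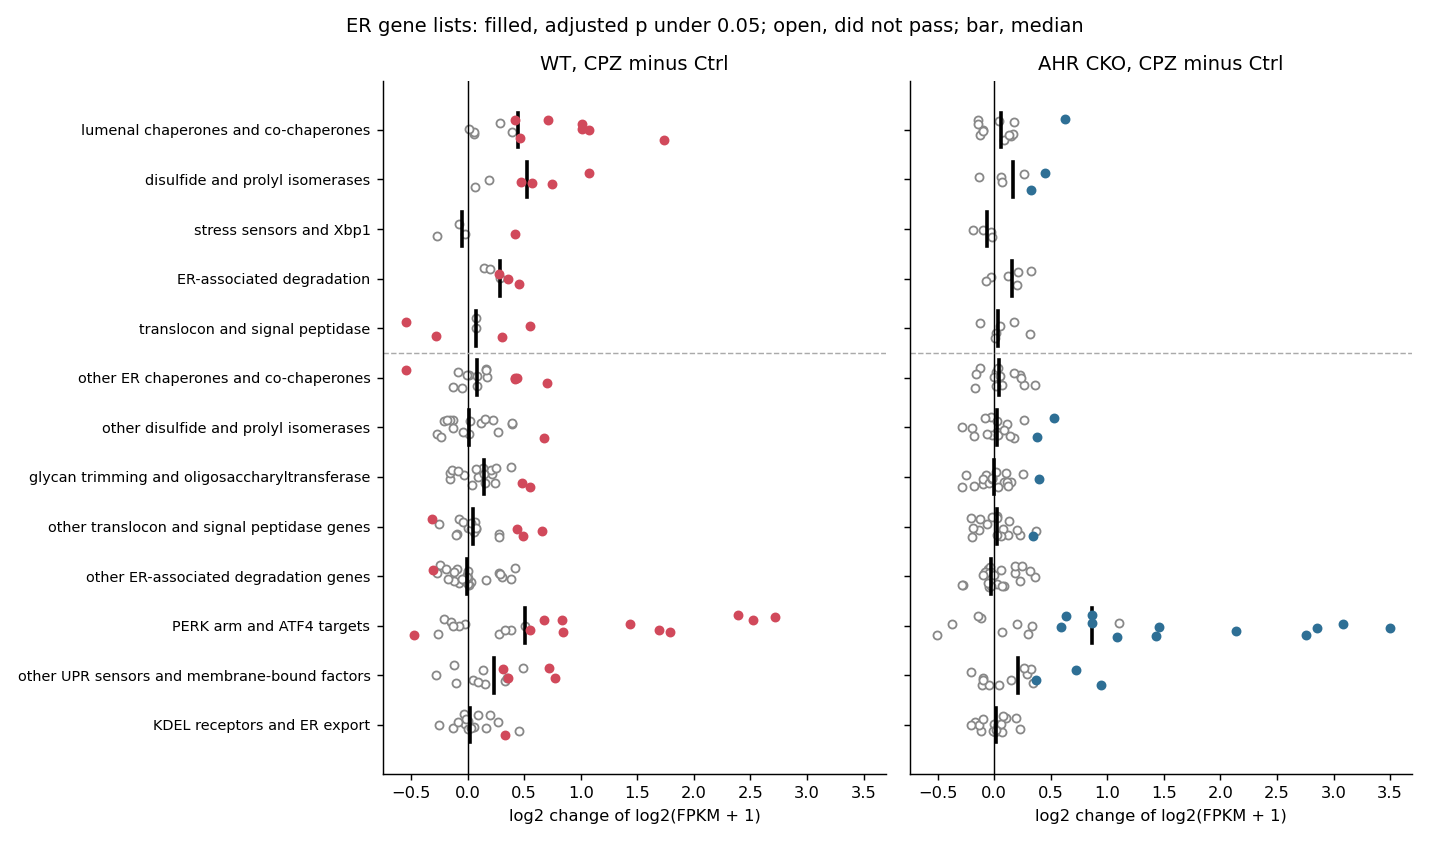
Log2 change of log2(FPKM + 1) with cuprizone for each tested gene of 13 ER gene lists, in WT (left) and AHR CKO (right), filled where adjusted p was under 0.05, with a bar at each list's median. The 5 lists above the dashed line hold the 34 genes described here. The median of the lumenal chaperones is 0.44 in WT and 0.06 in AHR CKO, and that of the PERK arm is 0.51 and 0.86.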

How the data were processed

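RNA of 12 corpus callosum samples was sequenced after library preparation with a SMARTER kit, per the labels' protocols. The authors deposited 1 table of FPKM values, per the file headers, on GRCm38, a build named in the submitters' processing notes. The sources used here name no aligner, quantifier, annotation or filter. Since FPKM hides read numbers, the depth estimate is rough and count models were not used. Genes with at least 1 FPKM in at least 3 of 12 libraries were tested on log2(FPKM + 1), which understates changes of low genes. limma 3.58.1 in R 4.3.3 fitted the 4 groups together (eBayes with trend), with two-sided p-values, Benjamini-Hochberg adjusted over all 13759 genes within each comparison and called under 0.05. Folds are ratios of mean FPKM. The 34 genes, the lists and the rule for naming other genes (per list up to 2 called increases and 2 decreases of largest size in WT) were chosen with earlier results of these data known. Same-numbered libraries showed no strong shared deviation from their group means (18 correlations from -0.34 to 0.25), and the labels do not say whether they pair. On 13759 genes simulated for the WT comparison the fit recovered 90% of changes of log2 1 and 55% of 0.5. There 100 better expressed genes were changed at each size, whereas 2324 genes were called in the data. The rates therefore do not carry over directly to the data or to the other comparisons. Alternatives were another pseudocount, 2 filters, 3 scalings, a replicate block, only the groups compared, no variance trend, and leaving out each library; a length and GC correction was added after seeing the data. RefSeq promoters and gene positions are of GRCm38.p6.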

Additional observations from a re-analysis of the deposited data

Results flagged for a closer look

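The cuprizone effect on Hspa5 differed between the genotypes by a test of the difference itself. The effect in AHR CKO minus that in WT was -1.18 on the log2(FPKM + 1) scale (limma, adjusted p = 0.0277), with 1.07 in WT and -0.10 in AHR CKO. This call passed in 13 of 21 alternatives. It was lost with the replicate block and without WT Ctrl replicate 1 or any AHR CKO library in turn (largest adjusted p = 0.123, limma). All 3 WT CPZ libraries lay above all 3 WT Ctrl libraries, while the AHR CKO groups overlapped.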

How the results depend on the processing

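No named call of the 34 genes, or of the 18 other genes named, changed direction under any alternative in which it was tested. In WT 12 of the 19 calls (Hspa5, Hsp90b1, Hyou1, Calr, Sdf2l1, Manf, Creld2, Pdia3, Pdia4, Pdia6, Ppib and Xbp1), and between genotypes under cuprizone 13 of 21, passed under every alternative; none of the 3 calls in AHR CKO, of the 3 between genotypes in control tissue, or the interaction of Hspa5 did. The count of called genes in AHR CKO (3) was 1 with a mean FPKM of at least 5 and with no variance trend, and 0 after rescaling to a common total, quantile normalization or with the replicate block (4, 7 and 6 at an unadjusted p under 0.05, limma). The count in control tissue (3) was 0 with only the groups compared and 0 with the replicate block (15 and 13 unadjusted). The interaction count (1) was 2 after rescaling or quantile normalization, 4 after the length and GC correction, and 0 with the replicate block (12 unadjusted). The replicate block gave 15 calls in WT and 20 between genotypes under cuprizone. The labels do not say whether same-numbered samples pair. Of the same-numbered correlations 3 of 18 were over 0.1, and of the others 14 of 36, which cannot decide it. Leaving out each library gave 13 to 20 calls in WT, 0 to 3 in AHR CKO, 0 to 4 between genotypes in control tissue, 16 to 24 under cuprizone and 0 to 5 for the interaction. Where 1 group was left with 2 libraries, the shared spread of all groups was used. The interaction count was 4 without WT Ctrl replicate 3 and 5 without WT CPZ replicate 2; the cause of these changes was not tested. With 3 libraries a group, small changes can be missed. In the simulation for WT, 55% of changes of log2 0.5 were recovered, but far fewer genes were changed there than were called in the data. Calls under log2 0.5 were made in WT, and Sdf2l1 with -1.11 did not pass the interaction. Ern1 was the lowest of the 34 genes, and its number of fragments is not known.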
